A study of Mus musculus with 12 samples.

Results

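The genes described here encode the enzymes and transporters that carry glucose carbon into T cells, through glycolysis to pyruvate and lactate, and through the pentose phosphate pathway. They were taken by symbol from the deposited count table as a list of 32 genes, and all 32 were found among its 49585 genes. The table holds RNA-seq counts of lymph node (LN) T cells sorted by surface staining that included TCRβ (antibody H57) and pooled before RNA extraction, with 4 groups of 3 samples each. CD4+ and CD8+ T cells came from C57BL/6 (B6) mice. CD8.1 and CD8.2 T cells came from CD8Dual mice (8in4 in the sample titles), in which both Cd4 loci were altered to encode CD8α.1 and CD8β in place of CD4 while the Cd8 loci, encoding CD8α.2 and CD8β, were intact. All mice were male and 6 to 10 weeks old, and the labels name no treatment. The paper's methods, however, say that its mice were of both sexes unless mentioned, and its RNA-seq methods name no sex. CD8.1 T cells carried the co-receptor made from the altered Cd4 locus, and CD8.2 T cells the one made from the Cd8 locus. The comparisons asked whether genes that separate helper from cytotoxic lineage T cells in B6 mice separate the CD8-bearing populations of CD8Dual mice in the same way. For RNA-seq the paper's methods name naive cells, sorted as TCRβ+CD62L+CD44-, and its figure legend names CD62L+TCR+ cells. The sample labels do not name the CD44- gate, and each sample is a pool of sorted cells.

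Glycolysis turns glucose into pyruvate in the cytosol. Pyruvate is then either reduced to lactate, which leaves the cell through monocarboxylate transporters, or oxidised in mitochondria by the pyruvate dehydrogenase complex. The pentose phosphate pathway branches off at glucose 6-phosphate and supplies NADPH and ribose for nucleotides. Resting naive T cells are known to make ATP largely by oxidation, and glycolytic genes are known to be raised on activation, under control of MYC and of the hypoxia factor HIF-1.

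Total counts ran from 18667474 to 37110502 per sample. Expression is given as CPM (counts relative to the TMM-scaled library total), and 3 counts, taken as the lowest readable level, corresponded to 0.0875 to 0.167 CPM, which covers counting error only. Cd4 was at 907.8 to 1004 CPM in B6 CD4+ and 47.2 to 51.5 in CD8.1 T cells, against at most 0.337 in B6 CD8+ and 1.79 in CD8.2 T cells. Cd8b1 was at 2133 to 2339 CPM in B6 CD8+ and 1998 to 2009 in CD8.2 T cells, and at 30.0 to 35.6 in B6 CD4+ and 157 to 216 in CD8.1 T cells. The 5 T cell markers (Cd3 chains and receptor constant regions) summed to 3360.0 to 4158 CPM over all samples. CD8.1 replicate 1 stood apart from the other CD8.1 samples, with an r of 0.989 and 0.989 with them across genes against 0.994 between the remaining pair, and calls between strains and in the interaction are given with and without it. CD8.2 replicate 3 had the highest total count, and its most counted gene was Gm42418 (3.14% of counts), not Eef1a1 as elsewhere. Its r with the other CD8.2 samples was 0.996 and 0.996. Its chi-square per gene against them was 83.7 and 55.1, the largest within any group.

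The members were well expressed, and all 32 passed edgeR's filter on low counts. Their summed level was 6012 ± 42.7 CPM (SD, n = 3) in B6 CD4+ and 5774 ± 90.4 in B6 CD8+ T cells. In CD8Dual mice it was 6439 ± 572 CPM for CD8.1 and 5896 ± 58.6 for CD8.2. The CD8.1 samples spread most, at 5826, 6957 and 6534 CPM, with replicate 1 the lowest. Levels of different genes were compared per kilobase (kb) of exon. On that scale Ldha, Gapdh and Aldoa were the 3 most abundant members in every group. In B6 CD4+ T cells these stood at 209 ± 6.44, 172 ± 9.45 and 158 ± 4.52 CPM per kb (SD, n = 3). Hk2, Slc16a3 and Aldoc were the 3 least abundant, at 0.300 ± 0.230, 0.609 ± 0.184 and 0.762 ± 0.0985 CPM per kb in the same cells. They were also the 3 members with fewer than 50 counts in a sample, the lowest being 11, so their values carry the largest counting error.

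**Figure D1:**
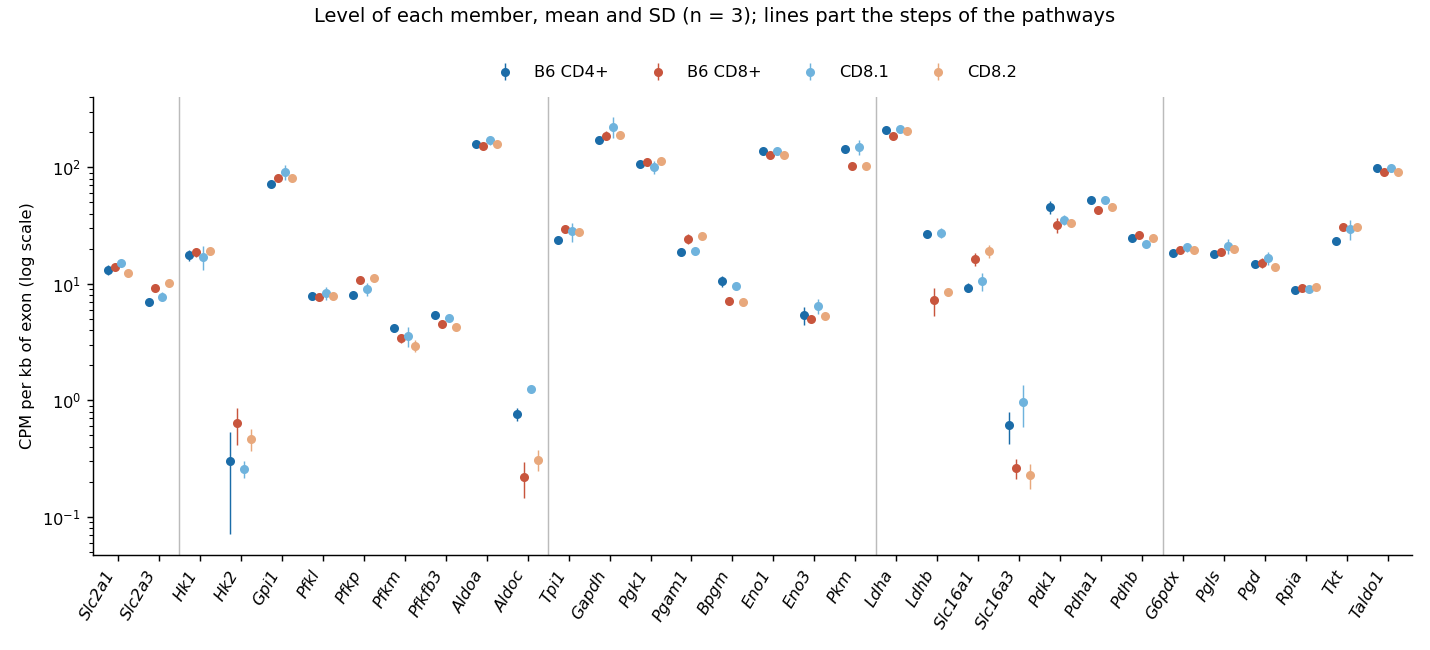
Mean level of each of the 32 members in CPM per kb of exon on a log axis, with the SD over 3 samples, in pathway order from transporters to the pentose phosphate pathway and coloured by group. Ldha, Gapdh and Aldoa lie highest, Hk2, Slc16a3 and Aldoc lowest, and Ldhb, Aldoc and Slc16a3 show the widest gaps between the CD4+ and CD8.1 points and the CD8+ and CD8.2 points.

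The B6 lineages differed in 15 of the 32 members by edgeR's quasi-likelihood test (p adjusted after Benjamini and Hochberg over all 13118 tested genes, called under 0.05). Of all tested genes 23.1% were called by this rule, and of the members 46.9%. In CD4+ T cells 9 members were higher (11.4% of all genes were) and 6 were lower (11.7% of all genes were). With CD8.1 set against CD8.2 in CD8Dual mice, 12 members were called, or 37.5%, against 28.7% of all tested genes. Of these, 8 were higher in CD8.1 (14.9% of all genes) and 4 were higher in CD8.2 (13.8% of all genes). The median log2 fold change of the members was −0.04 in B6 and 0.10 in CD8Dual mice, against −0.0011 and −0.0047 over all tested genes. The list as a whole was thus near 0, and the differences ran in both directions within it. The median absolute log2 fold change of the members was 0.217 in B6 and 0.224 in CD8Dual mice. Over all tested genes it was 0.199 and 0.243, so the members called more often did not differ by more than genes at large. At the study's own limit of more than 5-fold with an unadjusted p under 0.05, 0 members were called in either strain, against 3.29% and 3.32% of all tested genes.

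There were 11 members called in both strains, and all 11 changed in the same direction. They made up 73.3% of the members called in B6 and 91.7% of those called in CD8Dual mice. Over all tested genes, 2075 were called in both strains in the same direction, which is 68.5% of the B6 calls and 55.0% of the CD8Dual calls. Higher in CD4+ and in CD8.1 T cells were Pfkfb3, Aldoc, Bpgm, Pkm, Ldhb, Slc16a3 and Pdha1. Higher in CD8+ and in CD8.2 T cells were Slc2a3, Pfkp, Pgam1 and Slc16a1. Across the 32 members the log2 fold changes of both comparisons, which use separate samples, correlated (Pearson's r = 0.934, Spearman's rho = 0.779). This is a description over 32 genes that share libraries, and Ldhb, Aldoc and Slc16a3 lie far from the rest. In bulk samples, fewer cells of a type and less RNA per cell cannot be told apart.

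**Figure D2:**
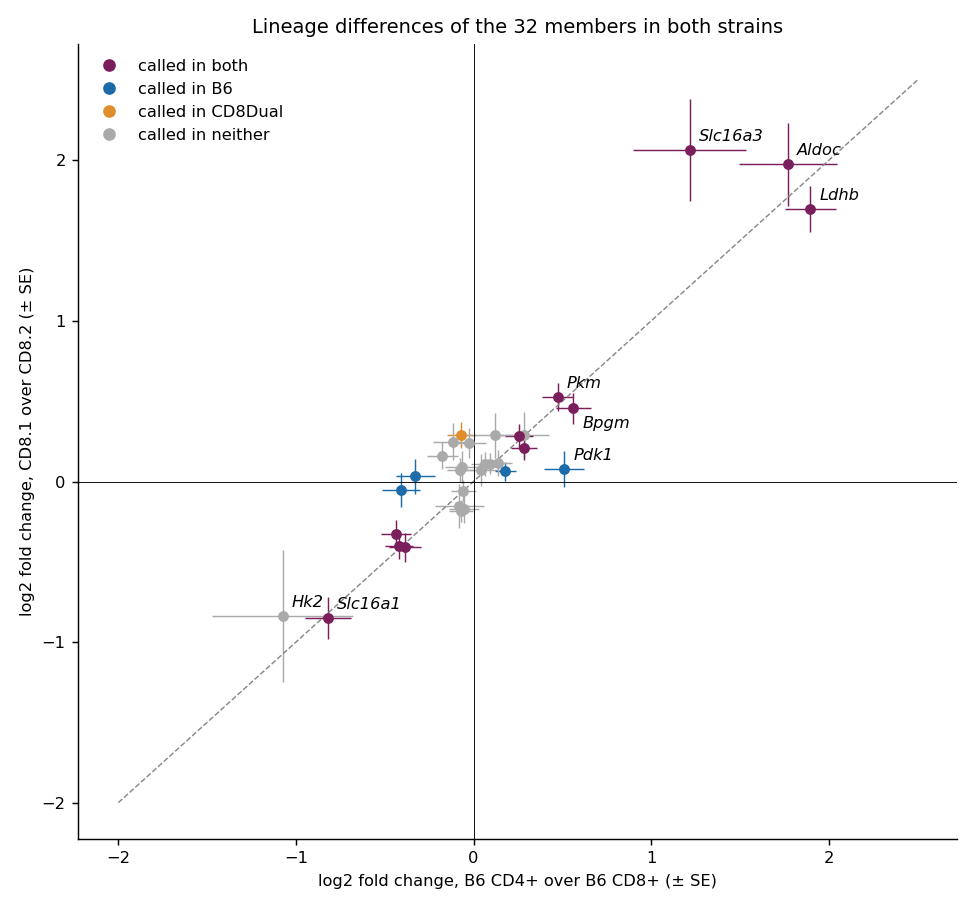
Log2 fold change with its standard error for each of the 32 members, B6 CD4+ over CD8+ on the x axis and CD8.1 over CD8.2 on the y axis, coloured by the comparison in which the adjusted p was under 0.05, with the line of equality dashed. Ldhb, Aldoc and Slc16a3 lie far to the upper right, Slc16a1 and the uncalled Hk2 to the lower left, and Pdk1 is the called member farthest below the line.

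Markers of other states moved with these comparisons. The summed level of 5 regulatory T cell markers (Foxp3, Il2ra, Ctla4, Ikzf2 and Tnfrsf18) was 133 to 185 CPM in B6 CD4+ and 350.4 to 385 in CD8.1 T cells, against 55.1 to 59.8 in B6 CD8+ and 54.0 to 56.4 in CD8.2 T cells. That of 6 memory or activation markers (Cd44, Ly6c2, Il2rb, Cxcr3, Eomes and Ccl5) was 1472 to 1829 CPM in B6 CD8+ and 973 to 1002 in CD8.2, against 131 to 164 in B6 CD4+ and 335 to 380.3 in CD8.1 T cells. In B6 all 6 were called lower in CD4+. For CD8.1 against CD8.2, 5 were called lower and 1 higher (log2 fold change 0.38). Foxp3 itself was at 32.6 to 44.6 CPM in B6 CD4+ and 102 to 168 in CD8.1 samples, and Cd44 at 33.4 to 77.8 over all samples. The 5 proliferation markers summed to 22.9 to 90.6 CPM, with overlap in B6 but not in CD8Dual mice, where CD8.1 stood at 40.5 to 67.4 and CD8.2 at 23.1 to 39.8. The 6 B cell markers, mostly Ighm, summed to 534 to 572 CPM in B6 CD4+ and 629.7 to 657 in B6 CD8+ samples, without overlap, and to 643 to 782 in CD8.1 and 591 to 679 in CD8.2 samples. In B6 all 6 were called, 4 higher and 2 lower in CD4+, so the sum ran against most of its markers. For CD8.1 against CD8.2, 2 were called higher and 0 lower. The 5 myeloid markers summed to 3.23 to 7.06 CPM in B6 CD4+ and 4.09 to 7.46 in B6 CD8+ samples, and to 15.2 to 18.7 in CD8.1 and 9.30 to 21.5 in CD8.2 samples, and 4 of the 5 were called as higher for CD8.1 against B6 CD4+. The 3 NK cell markers summed to 0.273 to 0.905 CPM in B6 CD4+ and 7.0 to 10.4 in B6 CD8+ samples, and to 0.427 to 1.42 in CD8.1 and 1.57 to 2.56 in CD8.2 samples. Of these, Ncr1 was at most 0.345 CPM and at 0 in 2 samples. The part of these states and cells in the results below was not tested.

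At the end of the pathway pyruvate meets lactate. Of the 7 members of this branch, 5 were higher and 1 lower in B6 CD4+ than in CD8+ T cells, and 3 were higher and 1 lower in CD8.1 T cells than CD8.2. That is 85.7% and 57.1% of the branch, against 23.1% and 28.7% of all tested genes. The median absolute log2 fold change of the branch was 0.51 in B6 and 0.21 in CD8Dual mice, against 0.20 and 0.24 over all tested genes. Ldhb encodes the heart-type subunit of lactate dehydrogenase, whose tetramer favours the conversion of lactate to pyruvate. Ldhb was at 42.5, 43.8 and 40.6 CPM in the B6 CD4+ samples and at 13.3, 12.8 and 7.79 in the B6 CD8+ samples. It was at 38.4, 45.2 and 45.3 CPM in CD8.1 and at 13.4, 13.1 and 13.3 in CD8.2. The 6 CD4+ and CD8.1 samples all lay far above the 6 CD8+ and CD8.2 samples. Its log2 fold change was 1.90 (SE 0.145, adjusted p = 8.24e-08, 3.72-fold) in B6 and 1.70 (SE 0.143, adjusted p = 3.48e-07, 3.24-fold) in CD8Dual mice. Ldha, the gene of the muscle-type subunit, whose tetramer favours lactate, differed far less. It was at 668, 702 and 708 CPM in B6 CD4+ against 614, 598 and 623 in B6 CD8+, and at 682, 729.9 and 693 in CD8.1 against 667, 668 and 679 in CD8.2 T cells. The groups did not overlap in either strain, although the gap in CD8Dual mice was narrow. Lineage groups did not overlap for 18 of the 32 members in B6 and 17 in CD8Dual mice. Among all 13118 tested genes this held for 39% and 40.7%, so lack of overlap alone is common. Ldha changed by 0.18 on the log2 scale (SE 0.0605, adjusted p = 0.0434) in B6, and had a log2 fold change of 0.06 (SE 0.0605, adjusted p = 0.461) in CD8Dual mice. The B6 call on Ldha was lost under the replicate block (adjusted p = 0.0529) and in 9 of the 12 fits that left out 1 sample.

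The sequence upstream of Ldhb is shown with that of Ldha because the subunits differed so unlike each other, and with those of the lactate carriers Slc16a1 and Slc16a3, which moved in opposite directions. Each is the 250 bases before a RefSeq start site in GRCm38.p6, read on the gene's strand, and lies at chr6:142507958-142508207 (minus strand) for Ldhb, chr7:46845554-46845803 (plus) for Ldha, chr3:104638414-104638663 (plus) for Slc16a1 and chr11:120948817-120949066 (plus) for Slc16a3. Capitals mark every match of ACGTG, a core of HIF-1 elements, on either strand, so that a capital CACGTG, the E-box bound by MYC and related factors, holds a match on both.
Ldhb: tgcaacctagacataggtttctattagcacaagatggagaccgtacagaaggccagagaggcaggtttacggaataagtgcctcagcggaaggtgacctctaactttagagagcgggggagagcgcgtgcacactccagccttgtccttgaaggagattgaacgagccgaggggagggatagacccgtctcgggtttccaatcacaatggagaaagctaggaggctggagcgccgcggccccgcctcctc
Ldha: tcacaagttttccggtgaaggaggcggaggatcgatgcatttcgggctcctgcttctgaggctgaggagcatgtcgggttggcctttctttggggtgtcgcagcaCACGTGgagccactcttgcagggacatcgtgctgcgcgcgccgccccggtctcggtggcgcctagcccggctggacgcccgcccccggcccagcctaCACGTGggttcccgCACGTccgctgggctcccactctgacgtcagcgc
Slc16a1: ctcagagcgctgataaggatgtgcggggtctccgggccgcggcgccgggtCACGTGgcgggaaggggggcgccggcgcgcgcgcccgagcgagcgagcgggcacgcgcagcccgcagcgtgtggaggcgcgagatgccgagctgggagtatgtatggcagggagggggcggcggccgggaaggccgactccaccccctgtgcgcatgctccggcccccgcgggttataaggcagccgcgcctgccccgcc
Slc16a3: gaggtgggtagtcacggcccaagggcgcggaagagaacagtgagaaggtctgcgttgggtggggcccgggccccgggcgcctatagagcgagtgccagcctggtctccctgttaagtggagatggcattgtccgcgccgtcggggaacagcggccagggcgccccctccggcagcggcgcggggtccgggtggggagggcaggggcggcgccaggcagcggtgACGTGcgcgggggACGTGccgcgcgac
Of the 32 members 31 had a RefSeq window, all but Slc2a3, with 45 windows in all. Ldha has a second window, at chr7:46846832-46847081, with no match to any motif searched. The bases just after the start site were looked for in the gene's own GENCODE M21 transcripts. They were found for Ldhb, Slc16a3 and the second Ldha window. For Slc16a1 and the Ldha window printed above they were not, so those start sites are less certain. ACGTG was found in 15 of the 45 windows (33.3%), which belong to 12 members, and in 16.6% of all 32851 RefSeq windows of this length. CACGTG was found in 4 of the 45 windows, those of Ldha, Pfkfb3, Pfkm and Slc16a1 and in 6.02% of all windows. TGTGGT, the core that RUNX factors bind, searched on both strands, was found in 6 of the 45 windows, those of 6 members (Aldoc, Hk1, Pdha1, Pdk1, Pfkp and Slc2a1) and in 14.0% of all windows. Among the members called in both strains, ACGTG was present for 3 of 7 that were higher in CD4+ and CD8.1 T cells and for 2 of 3 with a window that were higher in CD8+ and CD8.2 T cells. These are matches of letters in a window and no measure of binding.

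The lactate carriers moved apart. Slc16a1 encodes MCT1, a lactate and pyruvate carrier of high affinity. Slc16a1 was at 43.6, 37.2 and 42.4 CPM in B6 CD4+ and at 70.2, 64.6 and 82.6 in B6 CD8+ samples, and at 55.6, 43.5 and 40.4 in CD8.1 and 73.9, 95.1 and 82.4 in CD8.2 samples. Every CD8+ and CD8.2 sample was above every CD4+ and CD8.1 sample. This gave a log2 fold change of −0.82 (SE 0.129, adjusted p = 0.000202) in B6 and −0.85 (SE 0.128, adjusted p = 0.00015) in CD8Dual mice, or 1.76-fold and 1.80-fold higher in the CD8+ and CD8.2 cells. Slc16a3, which encodes MCT4, the carrier known for lactate export from glycolytic cells, went the other way at a far lower level. Slc16a3 was at 3.68, 2.11 and 3.91 CPM in B6 CD4+ and at 1.47, 1.09 and 1.64 in B6 CD8+ samples. It was at 4.39, 7.39 and 3.61 CPM in CD8.1 and at 0.937, 1.17 and 1.52 in CD8.2 samples. CD4+ and CD8.1 samples were higher in each strain without overlap, by a log2 fold change of 1.22 (SE 0.32, adjusted p = 0.0112) and 2.06 (SE 0.318, adjusted p = 0.000182). The B6 call was lost in 1 of 19 alternatives, without CD8+ replicate 2 (adjusted p = 0.0591).

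At the entry of pyruvate into mitochondria, Pdha1 and Pdhb encode subunits of pyruvate dehydrogenase, and Pdk1 encodes a kinase that switches the enzyme off. Pdk1 was at 374, 385 and 300.0 CPM in B6 CD4+ and at 248, 282 and 213 in B6 CD8+ samples, and at 306, 256 and 262 in CD8.1 and 248, 279 and 254 in CD8.2 samples. The B6 groups did not overlap, and the CD8Dual groups did. Pdk1 had a log2 fold change of 0.51 (SE 0.113, adjusted p = 0.00338) in B6 and 0.08 (SE 0.113, adjusted p = 0.654) in CD8Dual mice. The difference between the strains in this change, tested as an interaction, was −0.43 (SE 0.159, adjusted p = 0.247). Without CD8.1 replicate 1 the CD8Dual value of Pdk1 was −0.02 (SE 0.113). Pdha1 was at 189 to 204 CPM in B6 CD4+ and 152 to 166 in B6 CD8+ samples, and at 185 to 214 in CD8.1 and 164 to 177 in CD8.2 samples. It was higher in CD4+ and CD8.1 T cells, by 0.28 (SE 0.0728, adjusted p = 0.00978) and 0.21 (SE 0.0728, adjusted p = 0.0426) on the log2 scale, and the CD8Dual call was lost in 13 of 19 alternatives, among them without CD8.1 replicate 1 (0.13, SE 0.0641, adjusted p = 0.125). Of the exons of Pdha1, 16.2% are shared with Map3k15 on the other strand. Pdhb passed in neither strain, with log2 fold changes of −0.07 (adjusted p = 0.545) and −0.18 (adjusted p = 0.0602). Without CD8.1 replicate 1 the latter was −0.21 and passed (adjusted p = 0.0295). It was also called by DESeq2's Wald test and without B6 CD4+ replicate 1 or 3.

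The steps from hexokinase to aldolase commit glucose to glycolysis and split the sugar. Here 2 of 9 members were higher and 1 lower in B6 CD4+ than in CD8+ T cells, and 2 were higher and 1 lower in CD8.1 against CD8.2. The share called was 33.3% in each strain, against 23.1% and 28.7% of all tested genes. Aldoc, the aldolase known from brain, was at 2.36, 2.24 and 2.85 CPM in B6 CD4+ and at 0.450, 0.945 and 0.770 in B6 CD8+ samples. It was at 4.20, 3.85 and 4.08 CPM in CD8.1 and at 0.809, 1.00 and 1.22 in CD8.2 samples. CD4+ and CD8.1 samples were all higher, and CD8.1 lay above every B6 CD4+ sample as well. This came to a log2 fold change of 1.77 (SE 0.275, adjusted p = 0.000175, 3.41-fold) in B6 and 1.98 (SE 0.258, adjusted p = 3.69e-05, 3.93-fold) in CD8Dual mice. Aldoa, the aldolase that carries nearly all of the family's RNA here, was at 416 to 473 CPM in B6 and 441 to 521 in CD8Dual samples and passed in neither strain, although without CD8.1 replicate 1 its CD8Dual value of 0.17 did (adjusted p = 0.0379).

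Phosphofructokinase is the committing step of glycolysis, and its isozyme genes differed among themselves. Pfkp, the platelet type, was at 106, 108 and 105 CPM in B6 CD4+ and at 147, 138 and 149 in B6 CD8+ samples, and at 104, 135 and 123 in CD8.1 and 151, 149 and 155 in CD8.2 samples. It was higher in CD8+ and CD8.2 T cells without overlap, by 1.35-fold (log2 fold change −0.44, SE 0.0847, adjusted p = 0.00119) and 1.25-fold (−0.33, SE 0.0846, adjusted p = 0.00937). Pfkl, the liver type, passed in neither strain, with log2 fold changes of 0.04 (SE 0.0988) and 0.07 (SE 0.0988). Pfkm, the muscle type, had log2 fold changes of 0.28 (SE 0.14, adjusted p = 0.176) and 0.29 (SE 0.142, adjusted p = 0.145) and passed in neither strain, although without CD8.1 replicate 1 the CD8Dual value was 0.38 (adjusted p = 0.0482). Pfkfb3 makes fructose 2,6-bisphosphate, the activator of the enzyme. Pfkfb3 was at 38.5 to 44.3 CPM in B6 CD4+ and 32.8 to 36.8 in B6 CD8+ samples, and at 38.5 to 39.0 in CD8.1 and 31.3 to 32.4 in CD8.2 samples. It was higher in CD4+ and CD8.1 T cells by 1.19-fold (adjusted p = 0.0303) and 1.21-fold (adjusted p = 0.0161), calls that were lost in 6 and 3 of 19 alternatives.

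Hexokinase traps glucose in the cell. Hk1, the housekeeping type, overlapped between lineages in both strains, with log2 fold changes of −0.08 (SE 0.139) and −0.15 (SE 0.139). Hk2, the inducible type, was at 3.37, 0.862 and 1.15 CPM in B6 CD4+ and 2.70, 3.38 and 5.24 in B6 CD8+ samples, and at 1.48, 1.81 and 1.33 in CD8.1 and 2.51, 3.50 and 2.36 in CD8.2 samples. The B6 groups overlapped through CD4+ replicate 1. Hk2 had log2 fold changes of −1.07 (SE 0.396, adjusted p = 0.0642) in B6 and −0.84 (SE 0.41, adjusted p = 0.143) in CD8Dual mice, and the replicate block brought the B6 value past the threshold (−1.18, adjusted p = 0.0494). Hk2 was also called in B6 by DESeq2, by limma voom, without the filter on low counts and without B6 CD4+ replicate 1, and in CD8Dual mice without the filter, with only the groups compared and without B6 CD4+ replicate 1.

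The glucose transporters that T cells use behaved differently from each other. Slc2a3 encodes GLUT3, a transporter of high affinity. Slc2a3 was at 54.1, 49.1 and 47.4 CPM in B6 CD4+ and at 68.9, 67.2 and 65.4 in B6 CD8+ samples, and at 60.5, 50.7 and 57.4 in CD8.1 and 73.7, 75.5 and 73.3 in CD8.2 samples. All CD8+ and CD8.2 samples were above all CD4+ and CD8.1 samples. On the log2 scale the change was −0.42 (SE 0.0803, adjusted p = 0.00105) in B6 and −0.40 (SE 0.0801, adjusted p = 0.00163) in CD8Dual mice. Slc2a1 encodes GLUT1, the transporter known to rise on activation. Slc2a1 was at 51.3, 44.7 and 43.2 CPM in B6 CD4+ and 50.5, 49.4 and 46.0 in B6 CD8+ samples, which overlapped, and at 52.7, 53.6 and 51.6 in CD8.1 and 41.0, 44.4 and 43.5 in CD8.2 samples, which did not. Slc2a1 had a log2 fold change of −0.07 (SE 0.0805, adjusted p = 0.616) in B6 and 0.29 (SE 0.0807, adjusted p = 0.0135) in CD8Dual mice, with an interaction of 0.36 (SE 0.114) that had an unadjusted p of 0.00628 and an adjusted p of 0.163 in edgeR's test. The call in CD8Dual mice was lost in 1 of 19 alternatives, without CD8.2 replicate 1 (adjusted p = 0.0717).

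From triose to pyruvate, 4 of 8 members (50%) were called in B6 and 3 (37.5%) in CD8Dual mice, against 23.1% and 28.7% of all tested genes. Pkm encodes pyruvate kinase, which makes pyruvate and ATP, and its counts do not separate the M1 and M2 forms. The gene shares 15.3% of its exon length with Gm49759 on the same strand, so its counts are less certain. Pkm was at 692, 720.0 and 737 CPM in B6 CD4+ and at 500.4, 498 and 550.1 in B6 CD8+ samples, and at 630.4, 841 and 756 in CD8.1 and 516, 524 and 507 in CD8.2 samples. CD4+ and CD8.1 samples were higher without overlap, by 1.39-fold (log2 fold change 0.47, SE 0.0887, adjusted p = 0.000909) and 1.44-fold (0.53, SE 0.0887, adjusted p = 0.00039). Bpgm, which makes the 2,3-bisphosphoglycerate known from red cells, was at 32.8, 41.2 and 39.2 CPM in B6 CD4+ and at 25.2, 25.9 and 25.5 in B6 CD8+ samples. It was at 31.6, 36.6 and 35.3 CPM in CD8.1 and at 26.7, 23.1 and 25.5 in CD8.2 samples, so that the groups did not overlap. The log2 fold change of Bpgm was 0.56 (SE 0.097, adjusted p = 0.000449) in B6 and 0.46 (SE 0.0974, adjusted p = 0.00257) in CD8Dual mice. The 5 erythroid markers (4 globin genes and Alas2) summed to 2.23 to 26.2 CPM in B6 CD4+ and 0.614 to 15.8 in B6 CD8+, and to 1.85 to 26.3 in CD8.1 and 2.56 to 3.18 in CD8.2 samples, with overlap in both strains. Pgam1, the phosphoglycerate mutase, went the other way. Pgam1 was at 36.6, 34.5 and 40.0 CPM in B6 CD4+ and 46.9, 44.8 and 53.5 in B6 CD8+ samples, and at 38.2, 41.0 and 35.0 in CD8.1 and 51.7, 49.7 and 50.2 in CD8.2 samples. It was higher in CD8+ and CD8.2 T cells without overlap, by 1.31-fold (adjusted p = 0.00519) and 1.33-fold (adjusted p = 0.0032).

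The other triose genes include those often taken as reference genes. Tpi1, triosephosphate isomerase, was at 63.3, 63.8 and 68.2 CPM in B6 CD4+ and 76.9, 78.8 and 89.6 in B6 CD8+ samples, and at 63.1, 92.6 and 76.8 in CD8.1 and 78.1, 75.2 and 74.3 in CD8.2 samples. It passed in B6 (log2 fold change −0.33, SE 0.11, adjusted p = 0.0428), a call lost in 8 of 19 alternatives, and not in CD8Dual mice (0.03, SE 0.11, and 0.14, SE 0.0872, without CD8.1 replicate 1), where CD8.1 samples lay on both sides of CD8.2. Gapdh, Pgk1, Eno1 and Eno3 passed in neither strain, with log2 fold changes between −0.17 and 0.29. Without CD8.1 replicate 1, CD8Dual values of Gapdh (0.38, SE 0.0821, adjusted p = 0.00263), Eno1 (0.15, SE 0.0566, adjusted p = 0.0481) and Pgk1 (−0.29, SE 0.0683, adjusted p = 0.00412) passed. With all samples but no filter on low counts, Gapdh was called in CD8Dual mice as well. Gapdh was at 680.2 to 755 CPM in B6 CD4+, 729 to 851 in B6 CD8+, 732 to 1097 in CD8.1 and 755 to 805 in CD8.2 samples.

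The pentose phosphate pathway differed least between the lineages, with a median absolute log2 fold change of 0.069 in B6 and 0.081 in CD8Dual mice. Called were 16.7% and 0% of its members, against 23.1% and 28.7% of all tested genes. Of its 6 members, 1 passed in B6 and 0 in CD8Dual mice, where Pgd alone had an unadjusted p under 0.05 (0.0218 in edgeR's test, adjusted p = 0.0678). The member called was Tkt, transketolase, which links the pathway back to glycolysis. Tkt was at 174, 169 and 172 CPM in B6 CD4+ and 219.6, 227 and 237 in B6 CD8+ samples, and at 171, 254 and 231 in CD8.1 and 230.4, 235 and 216 in CD8.2 samples. The B6 groups were apart (log2 fold change −0.41, SE 0.107, adjusted p = 0.0112), and in CD8Dual mice the CD8.1 samples spread around CD8.2 (−0.05, SE 0.107, adjusted p = 0.757). Without CD8.1 replicate 1 this value was 0.08 (SE 0.0637, adjusted p = 0.336), and that of Pgd was 0.31 (SE 0.0826, adjusted p = 0.00879). In CD8Dual mice Pgd was also called by DESeq2's Wald test and with the filter at a mean of at least 1 CPM. G6pdx and Pgd, the NADPH-making dehydrogenases, Pgls, Rpia and Taldo1 had log2 fold changes between −0.07 and 0.14 in B6 and between −0.06 and 0.24 in CD8Dual mice. Pgls shares 20.6% of its exon length with Fam129c on the same strand, and G6pdx 13.6% with Ikbkg on the other, so these counts are less certain.

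**Figure D3:**
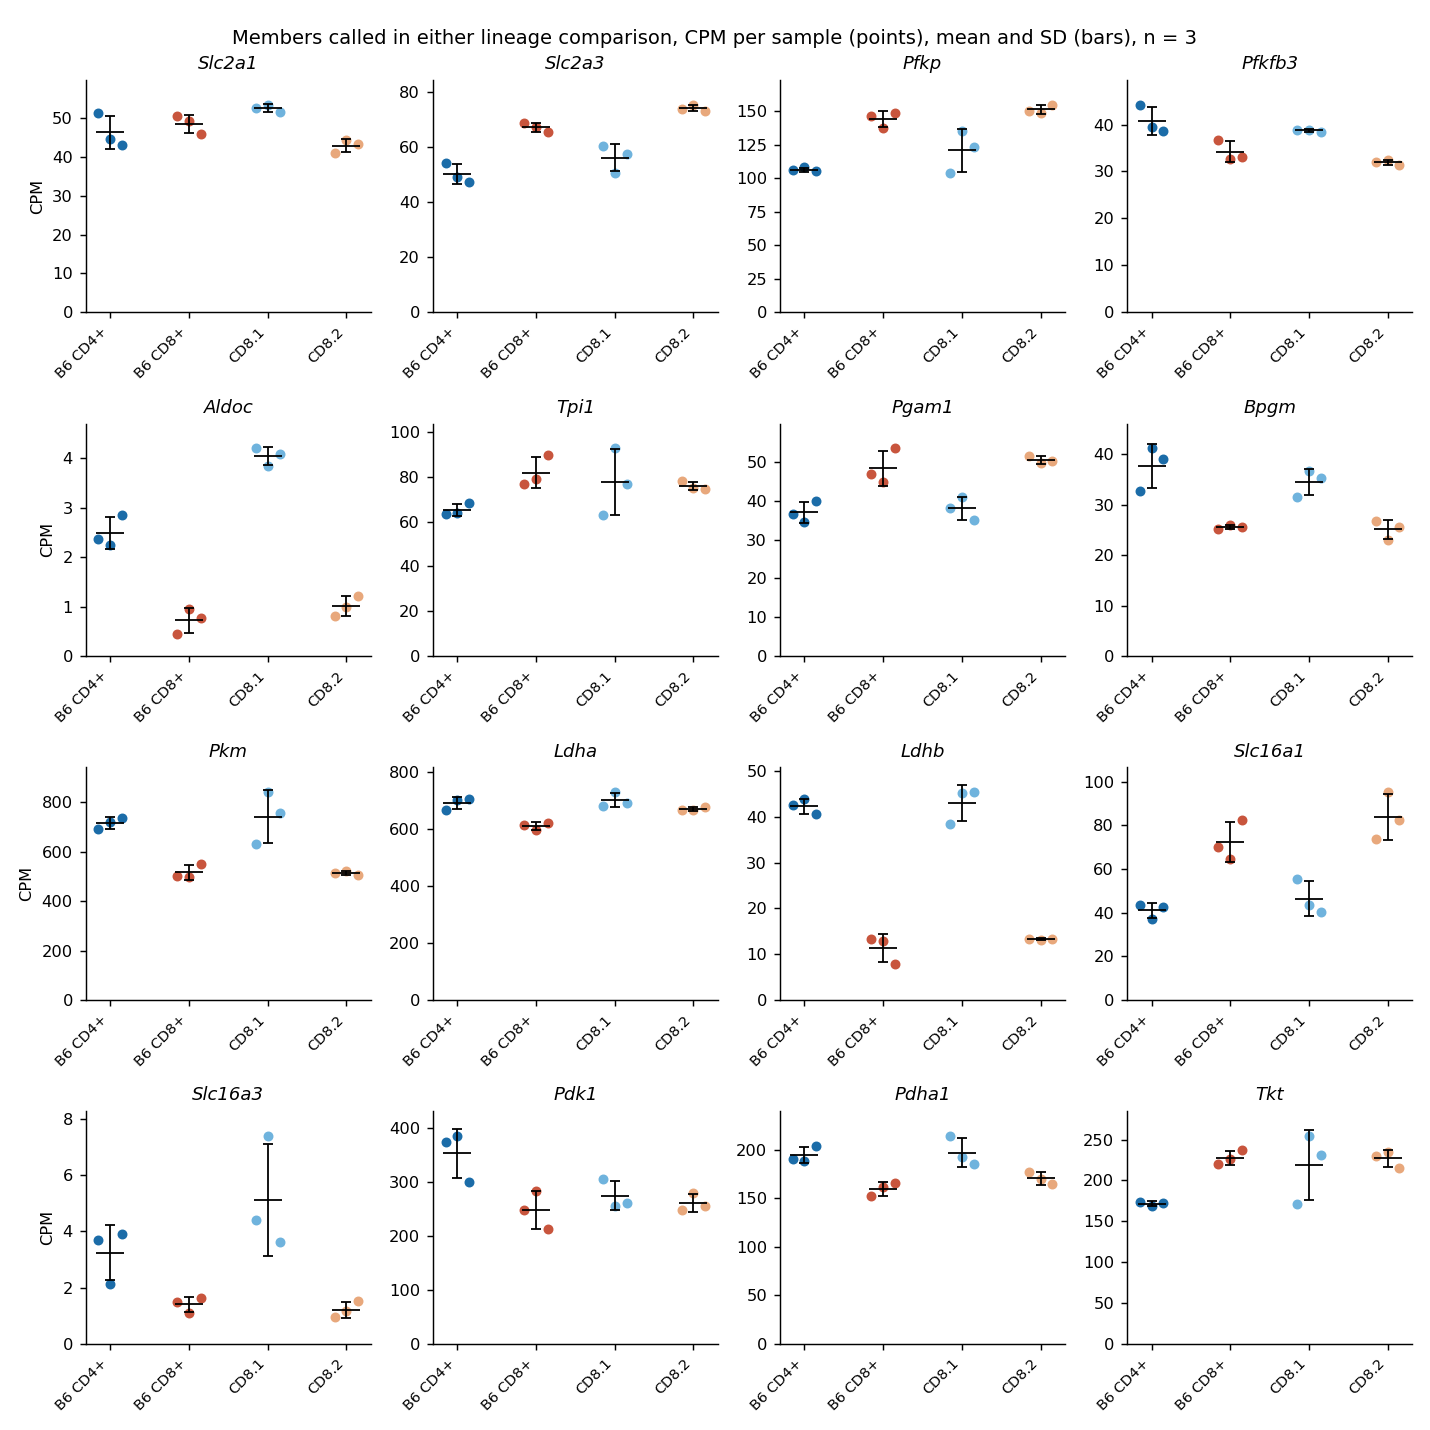
CPM in each of the 12 samples for the 16 members called in either lineage comparison, with 1 panel per gene, every axis starting at 0, points for samples and bars for the mean and SD (n = 3). In panels such as Ldhb, Slc16a1 and Aldoc the CD4+ and CD8.1 points stand apart from the CD8+ and CD8.2 points, while in Tkt and Tpi1 CD8.1 replicate 1 is low beside the other CD8.1 points.

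Because several steps have more than 1 gene, the makeup of each family was read as the share of a gene in its family's summed CPM per kb. The share of Ldhb in lactate dehydrogenase RNA was 11.4% ± 0.547 (SD, n = 3) in B6 CD4+ and 3.75% ± 1.02 in B6 CD8+, and 11.4% ± 0.766 for CD8.1 against 3.99% ± 0.0622 for CD8.2. The CD4+ and CD8.1 samples held 10.6% to 12.1% and the CD8+ and CD8.2 samples 2.57% to 4.36%, and a two-sided exact permutation test of 3 samples against 3 cannot go below 0.1. The share of Pfkp in phosphofructokinase RNA was 39.8% ± 2.02 in B6 CD4+ and 43.2% ± 0.532 in CD8.1, against 49.3% ± 0.761 in B6 CD8+ and 51.3% ± 1.56 in CD8.2 T cells. Slc2a3 made up 34.4% ± 0.520 and 34.1% ± 2.30 of the pair of glucose transporters in B6 CD4+ and CD8.1, and 40.1% ± 0.587 and 45.5% ± 0.845 in B6 CD8+ and CD8.2 T cells. In none of these families did a CD4+ or CD8.1 sample overlap a CD8+ or CD8.2 sample. Slc16a3 stayed the minor carrier, at 6.07% ± 1.37 and 8.50% ± 3.39 in B6 CD4+ and CD8.1 against 1.57% ± 0.171 and 1.19% ± 0.279 in B6 CD8+ and CD8.2. Aldoc never exceeded 0.842% of aldolase RNA and Hk2 never 4.97% of hexokinase RNA in a sample. These shares depend on the exon lengths used: with the length of the longest transcript, Ldhb was at 7.84%, 2.51%, 7.85% and 2.67% in the same order, a like contrast at a lower level.

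**Figure D4:**
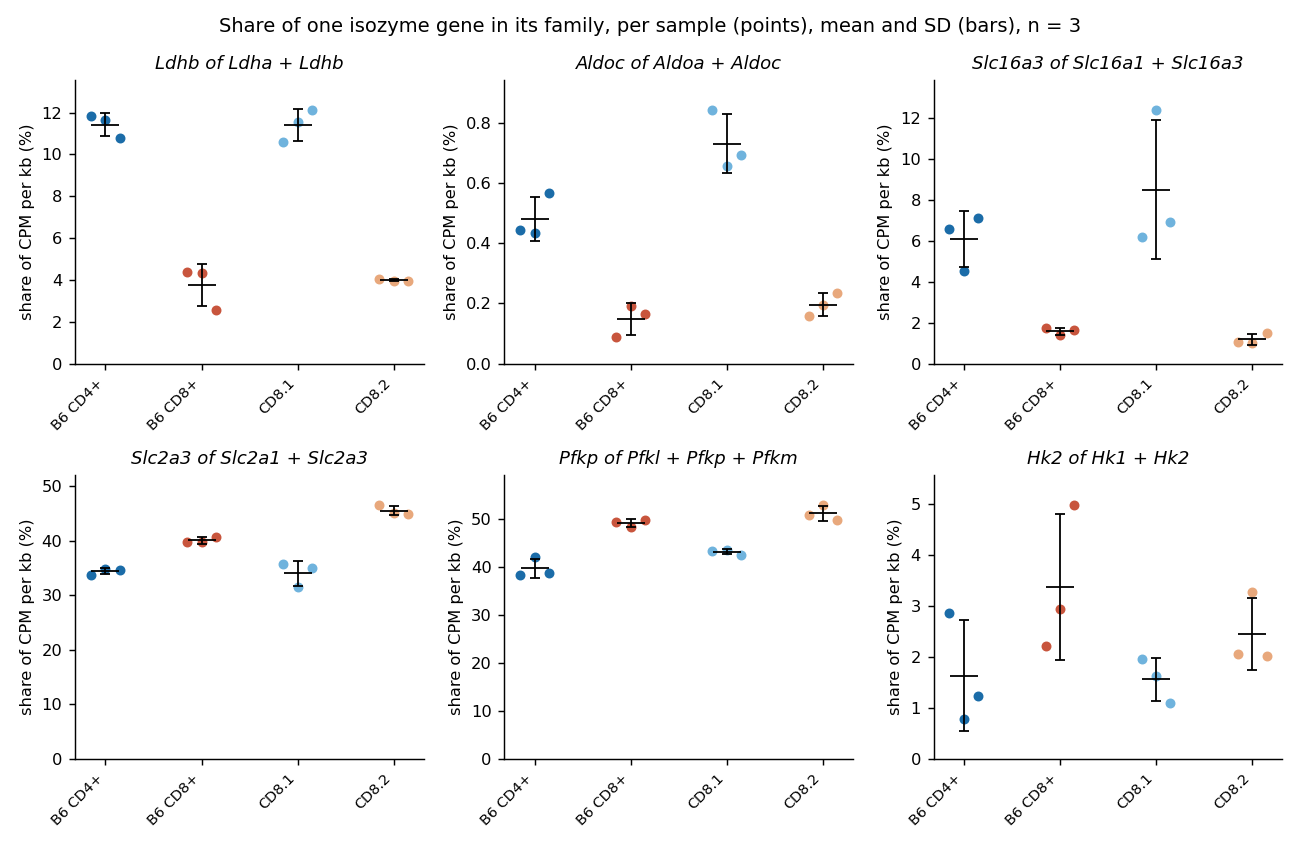
Share of 1 gene in the summed CPM per kb of its family for 6 families, in each sample (points) with the mean and SD (n = 3), axes starting at 0. The Ldhb share is near 11.4% in CD4+ and CD8.1 and near 4% in CD8+ and CD8.2 T cells, and Slc2a3 and Pfkp shares are higher in CD8+ and CD8.2.

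The CD8Dual populations were next set against their B6 counterparts. These comparisons share samples with those above. CD8.1 and B6 CD4+ T cells differed in 4 of 32 members at an adjusted p under 0.05, against 12.8% of all tested genes (6.94% higher and 5.82% lower in CD8.1). Gpi1 (glucose 6-phosphate isomerase), Gapdh and Tkt were higher in CD8.1, with log2 fold changes of 0.35 (SE 0.0859, adjusted p = 0.0159), 0.38 (SE 0.114, adjusted p = 0.0424) and 0.35 (SE 0.107, adjusted p = 0.0444). Pdk1 was lower, at −0.36 (SE 0.113, adjusted p = 0.0469). The call on Tkt was lost under the replicate block (adjusted p = 0.0585) and with limma voom (adjusted p = 0.0558). CD8.1 and B6 CD4+ samples did not overlap for 4 of 32 members, against 25.5% of all tested genes. Gpi1 was at 454, 462 and 465 CPM in B6 CD4+ and at 491, 646 and 625 in CD8.1 samples, without overlap, while Gapdh, Tkt and Pdk1 overlapped through CD8.1 replicate 1. Of the exon length of Gpi1, 11.5% is shared with Gm26762 on the other strand. CD8.1 replicate 1 was also left out in a further fit. Without that library 9 members were called, with Tpi1, Pfkp, G6pdx, Pgls and Pdhb added, while 22.1% of all tested genes were called. With only these 2 groups in the fit 0 were called, as without B6 CD4+ replicate 1 or 2 or without CD8.1 replicate 2 or 3. Of the members with the largest lineage differences, Ldhb (log2 fold change 0.02, SE 0.135) and Slc16a1 (0.18, SE 0.13) did not pass here. Slc16a3 had a log2 fold change of 0.67 (SE 0.292, unadjusted p = 0.0373, adjusted p = 0.147 in edgeR's test). Aldoc had one of 0.70 (SE 0.238, adjusted p = 0.0656 in edgeR's test), and was called by DESeq2 and by limma voom.

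CD8.2 and B6 CD8+ T cells differed in 0 of 32 members, against 7.94% of all tested genes, in edgeR's test. At an unadjusted p under 0.05 there were 2, Slc2a1 (−0.18, SE 0.0806) and Ldha (0.13, SE 0.0605), and DESeq2 and limma voom called 0. The members' log2 fold changes ran from −0.44 (Hk2, SE 0.38) to 0.49 (Aldoc, SE 0.294), with a median absolute value of 0.076, against 0.17 over all tested genes.

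**Figure D5:**
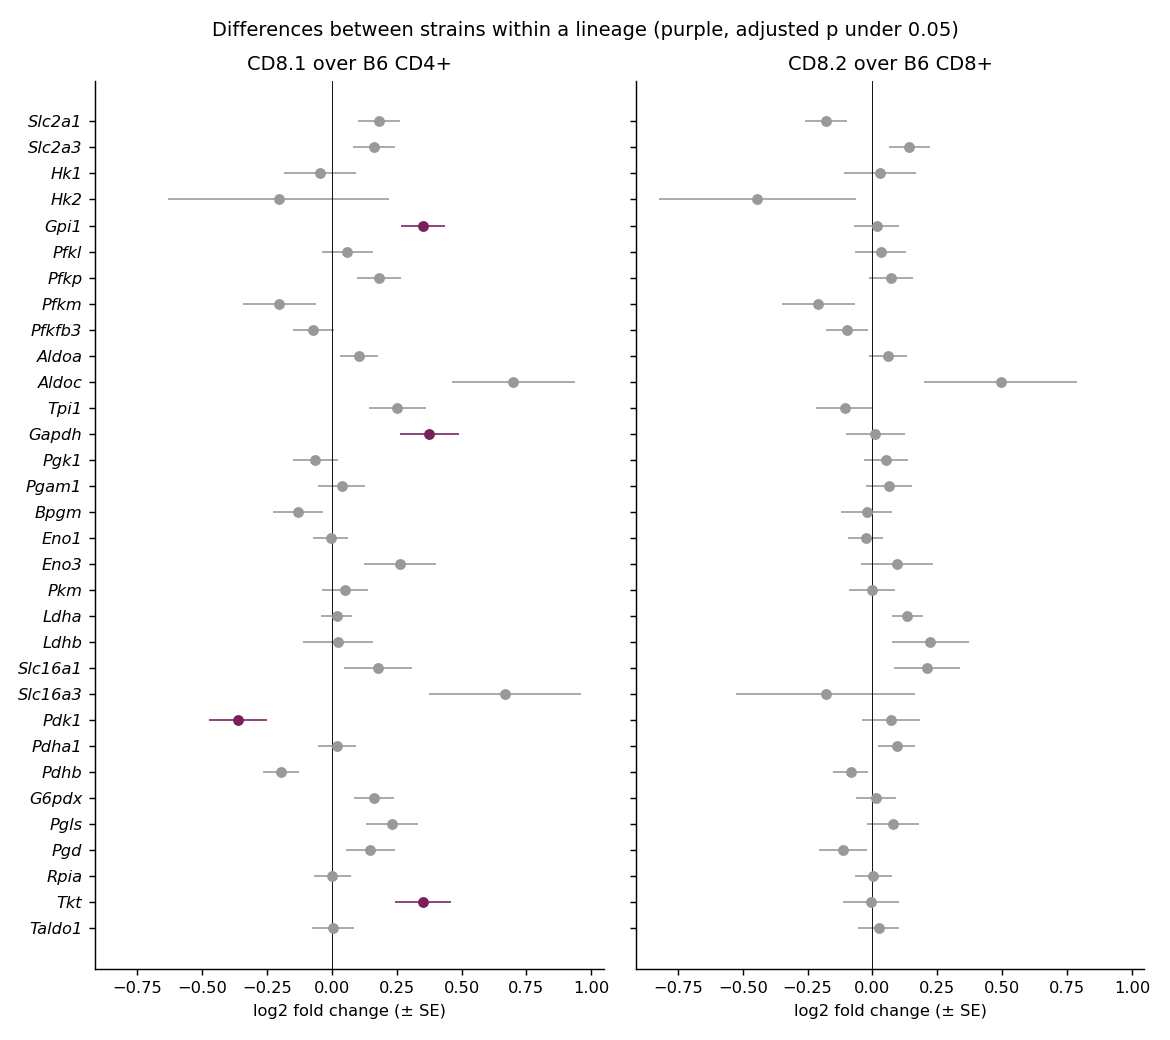
Log2 fold change with its standard error for each member, CD8.1 over B6 CD4+ on the left and CD8.2 over B6 CD8+ on the right, in pathway order, purple where the adjusted p was under 0.05. In the left panel Gpi1, Gapdh and Tkt are purple on the positive side of 0 and Pdk1 on the negative side, and in the right panel 0 points are purple.

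Whether the lineage change itself differed between the strains was tested as an interaction. Of the 32 members 0 passed, against 1.87% of all tested genes, and 6 had an unadjusted p under 0.05, namely Slc2a1, Gpi1, Pdk1, Tkt, Tpi1 and Gapdh, in edgeR's test. DESeq2 and limma voom called 0. For the members called in both strains the interaction ran from −0.20 (Ldhb, SE 0.201) to 0.85 (Slc16a3, SE 0.452). Without CD8.1 replicate 1, 5 members passed, and the share of all tested genes that passed rose to 10.1%. These were Gpi1 (0.44, SE 0.0715, adjusted p = 0.00194), Tkt (0.49, SE 0.0855, adjusted p = 0.00278), Gapdh (0.49, SE 0.111, adjusted p = 0.0124), Tpi1 (0.47, SE 0.117, adjusted p = 0.0207) and Pdk1 (−0.53, SE 0.153, adjusted p = 0.0413). In that fit 19 members were called for CD8.1 against CD8.2, with Aldoa, Eno1, Gapdh, Gpi1, Pdhb, Pfkm, Pgd and Pgk1 added and Pdha1 lost, while 37.4% of all tested genes were called. By contrast, Aldoc, Bpgm, Ldhb, Pfkp, Pgam1, Pkm, Slc16a1 and Slc2a3 were called in both strains under each of 19 alternatives, made up of 7 other settings and the 12 fits that left out 1 sample. The fold limits are not among the 19. Of these members only Aldoc, Ldhb and Slc16a1 kept their calls at more than 1.5-fold, and 0 at more than 5-fold.

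Other genes of these pathways were read from a list of 49, of which 28 had enough counts to be tested. In B6 CD4+ T cells 3 were higher and 4 lower than in CD8+, and 5 were higher and 5 lower in CD8.1 T cells than CD8.2. These are 25% and 35.7% of those tested, near the 23.1% and 28.7% of all tested genes. Called in both comparisons were Pfkfb4, a relative of Pfkfb3, Ldhd, the mitochondrial D-lactate dehydrogenase, Adpgk, an ADP-dependent glucokinase, Pdk3, a relative of Pdk1, and Hk3. Pfkfb4 was at 7.19, 5.82 and 7.78 CPM in B6 CD4+ against 3.40, 2.11 and 2.60 in CD8+, and at 6.40, 7.21 and 7.17 in CD8.1 against 3.87, 3.11 and 3.09 in CD8.2 samples. Its log2 fold changes were 1.36 (adjusted p = 6.66e-05) and 1.04 (adjusted p = 0.000673), both toward the cells in which Pfkfb3 was higher. Ldhd was higher in CD4+ and CD8.1 T cells by 2.29 (adjusted p = 5.07e-06) and 1.69 (adjusted p = 0.000133) on the log2 scale, but 42.2% of its exon length is shared with Znrf1 on the other strand. Adpgk was higher by 0.29 (adjusted p = 0.035) and 0.37 (adjusted p = 0.00815) in the same cells. Pdk3 was lower there, with log2 fold changes of −0.53 (adjusted p = 8.01e-05) and −0.28 (adjusted p = 0.0128), so that Pdk1 and Pdk3 differed in opposite directions in B6 mice. Hk3 was at 0.532, 0.436 and 0.192 CPM in B6 CD8+ and at 0.639, 1.28 and 0.787 in CD8.2 samples, and at most 0.332 CPM in B6 CD4+ and CD8.1 samples, which is near the level of 3 counts.

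Among 13 regulators of glycolysis, 1 was higher and 3 lower in B6 CD4+ than in CD8+ T cells, and 1 was higher and 1 lower in CD8.1 T cells than CD8.2. These are 30.8% and 15.4% of the list, against 23.1% and 28.7% of all tested genes. Rptor, a subunit of mTOR complex 1, was the gene called in both, at −0.44 (SE 0.0976, adjusted p = 0.00369) and −0.32 (SE 0.0987, adjusted p = 0.0241). The others, named after their values were seen, were Egln1 (higher), Myc and Mlxip (lower) in B6 CD4+ T cells, and Hif1a (higher) in CD8.1. Myc was at 85.0, 92.1 and 97.0 CPM in B6 CD4+ and 122, 133 and 135 in B6 CD8+ samples (adjusted p = 0.00464). It was at 94.0, 138 and 136 CPM in CD8.1 and 117, 113 and 124 in CD8.2 samples (adjusted p = 0.781), with CD8.1 replicate 1 again the low CD8.1 sample. Hypoxia targets outside glycolysis numbered 13 tested, of which 4 were higher and 1 lower in B6 CD4+ and 3 were higher and 1 lower in CD8.1 T cells. These are 38.5% and 30.8% of those tested, against 23.1% and 28.7% of all tested genes. The lower ones, named after their values were seen, were Car12 in B6 CD4+ (−0.91, adjusted p = 0.00672) and Kdm3a in CD8.1 T cells (−0.41, adjusted p = 0.00292). Mxi1 was higher in both, by 0.52 (adjusted p = 0.00122) and 0.43 (adjusted p = 0.00438), as were Ndrg1, by 0.61 (adjusted p = 0.0291) and 1.16 (adjusted p = 0.000302), and the low P4ha2, at 0.595 to 0.819 CPM in B6 CD4+ and 0.285 to 0.663 in CD8.1 samples against at most 0.291 in B6 CD8+ and 0.0426 in CD8.2 samples.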

How the data were processed

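The authors aligned read pairs of SMARTer low-input libraries to mm10 with STAR and took raw gene counts from RSEM, and the deposited table holds these counts as whole numbers without normalization. Tool versions, annotation release and use of strand are not given in the sources used here. Columns were matched to samples by name, with 0 left unmatched. The summed level of naive T cell markers is not reported here. The members and gene lists were chosen with earlier results of these data known.

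Counts were fitted with edgeR 4.0.16 in R 4.3.3 (glmQLFit, glmQLFTest, TMM, filterByExpr), with all 12 samples in a single model of 4 group means, so that spread is shared. A gene was called at a Benjamini-Hochberg adjusted p under 0.05 over 13118 genes, with no fold limit, whereas the authors' DEG definition also asks for more than 5-fold. The SE of a log2 fold change is its size divided by the square root of F. The fit was tested on simulated counts first. Total counts were 18667474 to 37110502 per sample, and the common biological coefficient of variation was 11.2%. No replicates agreed within sampling noise. Whether samples of a group came from separate mice is not stated, so p-values measure the spread between these samples, which may be technical.

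Exon lengths and overlaps came from GENCODE M21 on GRCm38, which held 49326 of the 49585 gene identifiers, 43749 of them in the same version. Near-identical transcripts (at least 95% over 200 bases, blastn 2.17.0) existed for 10 members, and their counts came to at most 1.84% of the member's. Promoter windows are from RefSeq, GRCm38.p6.

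Named members are those with an adjusted p under 0.05 in a lineage comparison. From the other lists, genes called in both lineage comparisons were named. The replicate numbers may pair B6 samples, by the data alone: samples with the same number in the B6 lineages deviated together, with correlations of 0.232, 0.240 and 0.366. Deviations from a mean of 3 samples depend on each other, so these values cannot settle pairing. Alternatives were DESeq2 1.42.0 (size factors or Wald test), limma 3.58.1 voom, no filter, a mean of at least 1 CPM, the replicate block, only the groups compared, fold limits of 5 and 1.5, and each sample left out. Figures used matplotlib 3.10.9.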

Additional observations from a re-analysis of the deposited data

How the results depend on the processing

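The log2 fold changes of the 31 member calls were refitted under 19 alternatives each. Of the resulting 589 values 507 stayed past the threshold, 82 did not and 0 changed sign. The 19 include fits that left out a sample of neither group compared. Such fits can change the spread but hardly the fold change, so these counts overstate how far the sign was tested. Called members numbered 15 in B6, 12 between CD8.1 and CD8.2, 4 between CD8.1 and B6 CD4+, 0 between CD8.2 and B6 CD8+ and 0 in the interaction. With the authors' limit of more than 5-fold and an unadjusted p under 0.05, the first 3 counts were 0, 0 and 0, and with an adjusted p and more than 1.5-fold they were 4, 4 and 0. The 4 left at 1.5-fold were Aldoc, Ldhb, Slc16a3 and Slc16a1 in both strains. With only the groups compared, 0 members were called for CD8.1 against B6 CD4+. Without the filter on low counts 1 member, Pdk1, passed the interaction. With each sample left out in turn, the counts ran from 11 to 16, from 9 to 19, from 0 to 9, from 0 to 0 and from 0 to 5 in the order given. The highest values came without CD8.1 replicate 1, and the cause was not tested. With the replicate block, 15, 12, 3, 0 and 0 members were called. Ldha was lost and Hk2 gained in B6, Tkt was lost between CD8.1 and B6 CD4+, and the block changed no other call. In CD8Dual mice the deviations of samples with 1 number correlated at −0.071, 0.144 and 0.133, which does not settle whether those samples pair. The isozyme shares moved by more than 1 SD in 21 of 112 recomputed values. Leaving out 1 of 3 samples cannot move a mean that far. The moves therefore all came from using the length of the longest transcript, which was done for 28 shares. Depth limits Hk2, Slc16a3 and Aldoc, with 11 to 167 counts per sample.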
